A study of Mus musculus with 8 samples.

Results

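The 9 genes described here encode the machinery that makes the 3′ ends of replication-dependent histone mRNAs, together with factors of the histone locus body and of the nuclear cap that act on the same transcripts. They are Rnu7, Lsm10 and Lsm11 of the U7 small nuclear ribonucleoprotein, Slbp and Eri1, which bind the histone stem-loop, Npat and Casp8ap2 of the histone locus body, and Ncbp1 and Srrt of the cap-binding complex. Positions are RefSeq spans on GRCm38.p6. The genes were taken by symbol, and all 9 had a row among the 27179 genes of the count table. RNA was measured in the cerebral cortex of 8 mouse embryos, with 1 library from each embryo. The Taf8-deleted group held 4 embryos of the genotype Taf8 -/lox. The Taf8-intact group held 4 embryos of the genotype Taf8 +/+, of which 3 share the first part of their animal number. If that part marks a litter, these 3 are litter mates, and n = 4 counts embryos and not litters. The sources used here give no embryonic age, strain or recombinase for the lox allele. The product of Taf8 is part of TFIID, the complex that binds core promoters and brings RNA polymerase II to them. Polyadenylated RNA was made into unstranded libraries, and each library held 39590959 to 44788200 gene counts. Levels are given as CPM (counts scaled to a common library size) after TMM, a method that sets library sizes so that most genes do not differ on average, and differences as log2 fold changes, Taf8-deleted minus Taf8-intact. A gene was called when its adjusted p was below 0.05. Rises and falls are therefore relative to the other genes, and a change in total RNA per cell was not tested.

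Most animal mRNAs end in a poly(A) tail, whereas the mRNAs of replication-dependent histones end just after a conserved stem-loop. The stem-loop is bound by SLBP, and a purine-rich element downstream of the cut is recognised by base pairing with U7 snRNA. The U7 particle carries an Sm ring in which LSM10 and LSM11 take the places that SmD1 and SmD2 hold in spliceosomal particles. LSM11 and the CASP8AP2 protein, also called FLASH, together recruit a cleavage complex that contains CPSF3, CPSF2, symplekin and CSTF2. When this processing fails, transcription runs on to downstream poly(A) sites and the histone mRNA gains a tail, which brings it into libraries of polyadenylated RNA.

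The sequences on which the factors act are shown first, since the U7 row had the largest difference among the 9 genes and the histone transcripts are what the factors act on. The U7 snRNA is transcribed from the minus strand of chr6:124741225-124741286 (GRCm38, sequence from GENCODE M21). In its 62 bases the capitals mark first the stretch, bases 12 to 18, that pairs with the purine-rich element of the histone pre-mRNA, and then the Sm-binding site, bases 21 to 31.
Rnu7: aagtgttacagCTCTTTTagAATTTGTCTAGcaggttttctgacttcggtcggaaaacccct
The stem-loop bound by SLBP and ERI1 was searched for, as a sequence pattern, in the GENCODE M21 transcripts of 62 replication-dependent histone genes. A match was found in 42 of them. Genes without a match may still have a stem-loop, beyond the annotated transcript or in a form outside the pattern. The 16 bases of the stem-loop are in capitals, with 5 flanking bases on either side, for 4 genes, all on chromosome 13, that hold 3 of the 8 forms found. They are shown because their rows had large differences, as given at the end.
H1f2: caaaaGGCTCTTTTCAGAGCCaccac
H2ac6: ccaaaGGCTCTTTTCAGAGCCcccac
H4c9: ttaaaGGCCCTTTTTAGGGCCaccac
H4c8: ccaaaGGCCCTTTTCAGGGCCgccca
The form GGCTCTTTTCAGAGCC, that of H1f2 and H2ac6, was the most frequent and occurred in 24 of the 42 genes.

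Taf8 itself stood at 0.495 ± 0.187 CPM in Taf8-deleted and 32.6 ± 2.07 CPM in Taf8-intact cortex (SD, n = 4 each), so each library had the level its label calls for. Cortical markers were present in all libraries, with a sum over 8 genes of 1931 to 2030 CPM in Taf8-deleted and 2381 to 2452 CPM in Taf8-intact libraries. Of the 8, 5 fell and 2 rose: Neurod6, a marker of postmitotic neurons, averaged 191 ± 18.4 CPM in Taf8-deleted and 482 ± 25.5 CPM in Taf8-intact cortex, while Pax6 and Lhx2 rose by 0.48 ± 0.07 and 0.20 ± 0.05 (log2 ± SE). The sum of 7 markers of the ganglionic eminences was 538 to 573 CPM in Taf8-deleted and 732 to 848 CPM in Taf8-intact libraries. Of the 7, 6 fell and 1, Dlx5, rose by 0.39 ± 0.08 (log2 ± SE). Meningeal markers, of which 4 of 6 rose, summed to 18.6 to 145.7 CPM in Taf8-deleted and 15.9 to 36.9 CPM in Taf8-intact libraries. Lum stood at 0 in Taf8-intact replicate 2. Endothelial markers, of which 6 of 6 rose, summed to 157 to 195 CPM in Taf8-deleted and 134 to 142 CPM in Taf8-intact libraries. Choroid plexus markers, of which 4 of 4 were not called, summed to 1.496 to 852 CPM in Taf8-deleted and 2.83 to 269 CPM in Taf8-intact libraries. Of the blood markers 2 of 4 rose, with sums of 85.5 to 150.5 CPM in Taf8-deleted and 83.5 to 101 CPM in Taf8-intact libraries. Of the microglial markers 2 of 5 rose and 1 fell, with sums of 29.7 to 38.0 CPM in Taf8-deleted and 29.8 to 32.4 CPM in Taf8-intact libraries. Beside these marker counts, 30.6% of all genes tested rose and 32.9% fell. In bulk tissue, fewer cells of a type and less RNA per cell cannot be told apart, and the part of tissue makeup in the values below was not tested.

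The set split in opposite directions. In Taf8-deleted cortex 4 of the 9 genes rose, Rnu7, Lsm10, Ncbp1 and Slbp, and 4 fell, Lsm11, Eri1, Casp8ap2 and Srrt, while Npat was not called. Among all 16074 genes tested, 30.6% rose and 32.9% fell, and 63.5% were called in either direction. The 4 Taf8-deleted and 4 Taf8-intact values did not overlap for 7 of the 9 genes, 3 higher and 4 lower, against 57.7% of all genes tested, 27.6% higher and 30.1% lower. Leaving Rnu7 aside, every log2 fold change lay between -0.31 and 0.29. The median absolute log2 fold change was 0.25 over the 9 genes and 0.27 over all genes tested.

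**Figure D1:**
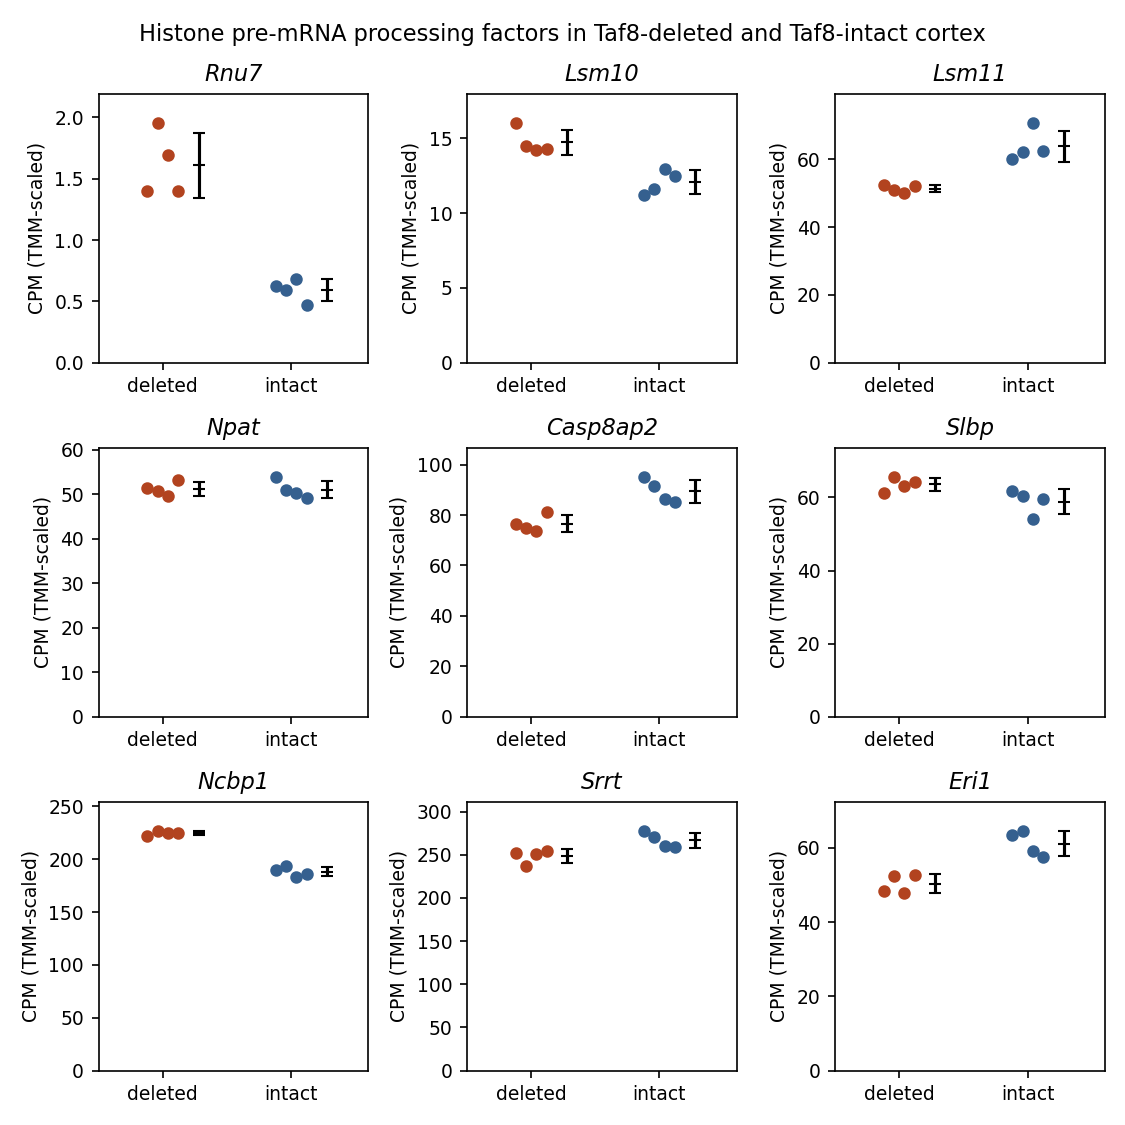
TMM-scaled CPM of the 9 genes in the 4 Taf8-deleted (left) and 4 Taf8-intact (right) libraries, 1 point per embryo, with mean and SD beside them; each axis starts at 0. Rnu7 lies at 1.40 to 1.95 CPM in Taf8-deleted and 0.474 to 0.681 CPM in Taf8-intact libraries, while the other 8 genes differ by small amounts.

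Rnu7, the gene of the U7 snRNA, had the largest difference of the set. It was counted 64, 86, 75 and 56 times in the Taf8-deleted libraries and 27, 25, 28 and 20 times in the Taf8-intact libraries. In CPM these were 1.40, 1.95, 1.69 and 1.40 in Taf8-deleted and 0.628, 0.589, 0.681 and 0.474 in Taf8-intact cortex. Every Taf8-deleted library was above every Taf8-intact one. The log2 fold change was 1.44 ± 0.19 (SE), or 2.71-fold, and the quasi-likelihood test of edgeR gave an adjusted p = 2.9e-05. It ranked 605 by absolute log2 fold change among the 16074 genes tested. These are few counts for RNA of 62 bases that is not normally polyadenylated, so they give the row's level in libraries of polyadenylated RNA and not the amount of U7 snRNA in the cell.

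The position of Rnu7 matters for its counts. In GENCODE M21 the span of the protein-coding gene Grcc10, on the same strand, covers all 62 bases of Rnu7, as does that of a longer same-strand protein-coding gene, Gm45234, for which no value is given here. The RefSeq span of Grcc10 starts 156 bases downstream of it. Grcc10 averaged 56.5 ± 2.29 CPM in Taf8-deleted and 89.0 ± 3.25 CPM in Taf8-intact cortex (SD, n = 4 each) and fell by 0.65 ± 0.04 (log2 ± SE, adjusted p = 4.55e-08 by the quasi-likelihood test of edgeR). The Rnu7 and Grcc10 rows thus differed in opposite directions. Atn1, named after its values were seen, lies upstream of both on that strand, and its product is a transcriptional corepressor. It averaged 248 ± 13.9 CPM in Taf8-deleted and 302 ± 4.47 CPM in Taf8-intact cortex. Both fell, Atn1 by 0.28 ± 0.04 (log2 ± SE). Which transcript the reads of the Rnu7 row came from was not tested.

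Other short nuclear RNAs were sparse. Of 17 rows annotated as snRNA, only Rnu7, Rn7sk and Snord73b passed the filter on low counts, and the last 2 are named after their values were seen. Rn7sk, the 7SK RNA that holds the elongation kinase P-TEFb inactive, had 3.09, 2.15, 1.76 and 1.72 CPM in Taf8-deleted and 1.09, 1.08, 1.66 and 1.56 CPM in Taf8-intact libraries. It rose by 0.70 ± 0.22 (log2 ± SE, adjusted p = 0.0152 by the quasi-likelihood test of edgeR). Snord73b averaged 0.398 ± 0.145 CPM in Taf8-deleted and 0.280 ± 0.107 CPM in Taf8-intact cortex and was not called (adjusted p = 0.21). The named protein-coding genes whose centred log2 CPM lay closest to that of Rnu7 over the 8 libraries were Trappc6a, Gnat2 and Adssl1, with root mean square differences of 0.144, 0.155 and 0.160 on the log2 scale.

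**Figure D2:**
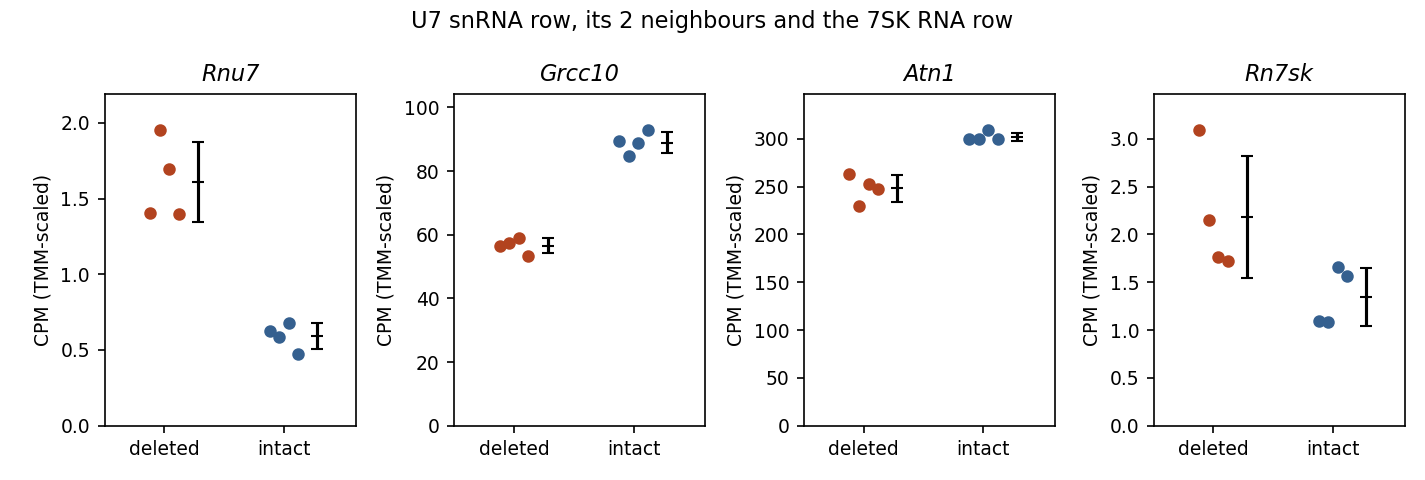
TMM-scaled CPM in Taf8-deleted (left) and Taf8-intact (right) libraries for Rnu7, its same-strand neighbours Grcc10 and Atn1, and Rn7sk, with mean and SD. Rnu7 is higher and Grcc10 and Atn1 are lower in all 4 Taf8-deleted libraries than in any Taf8-intact library.

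The protein subunits that distinguish the U7 particle from the spliceosomal ones moved in opposite directions. Lsm10 (chr4:126096562-126098584, plus strand) had 15.99, 14.5, 14.2 and 14.3 CPM in the Taf8-deleted and 11.2, 11.6, 12.9 and 12.5 CPM in the Taf8-intact libraries. The groups did not overlap, and Lsm10 rose by 0.29 ± 0.07 (log2 ± SE, adjusted p = 0.00218 by the quasi-likelihood test of edgeR). Lsm11 (chr11:45928266-45944996, minus strand), whose product also binds FLASH, had 52.3, 50.9, 50.1 and 52.1 CPM in the Taf8-deleted and 60.0, 62.2, 70.6 and 62.5 CPM in the Taf8-intact libraries. All 4 Taf8-deleted values were below the Taf8-intact ones, a log2 fold change of -0.31 ± 0.05 (adjusted p = 1.11e-04). The ratio of Lsm10 to Lsm11, each per base of gene length, was 2.16, 2.01, 2.01 and 1.93 in Taf8-deleted and 1.32, 1.32, 1.30 and 1.41 in Taf8-intact libraries. The ratio was therefore higher in every Taf8-deleted library, and it is given as a description of both rows.

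The other Sm proteins of the U7 ring are shared with the spliceosome. Of their 5 genes, 1 rose and 1 fell, Snrpb by 0.15 ± 0.04 and Snrpe by -0.29 ± 0.06 (log2 ± SE), with a median of -0.05 beside 0.0001 over all genes tested. Snrpd1, whose product has the place of LSM10 in spliceosomal rings, averaged 29.5 ± 1.41 CPM in Taf8-deleted and 41.4 ± 1.29 CPM in Taf8-intact cortex (SD, n = 4 each). It fell by 0.49 ± 0.04 on the log2 scale, while Snrpd2 had a log2 fold change of 0.11 ± 0.06 and was not called (adjusted p = 0.143 by the quasi-likelihood test of edgeR).

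Promoter windows of Lsm10 and Lsm11 are shown because these subunits of 1 ring differed in opposite directions. They run from 250 bases before to 50 after a transcript start that lies inside the gene's annotated span (RefSeq, GRCm38.p6), Lsm10 on the plus strand of chr4:126096403-126096702 and Lsm11 on the minus strand of chr11:45944886-45945185. Capitals mark matches, on either strand, to GGGCGG (the GC box) and CCAAT.
Lsm10: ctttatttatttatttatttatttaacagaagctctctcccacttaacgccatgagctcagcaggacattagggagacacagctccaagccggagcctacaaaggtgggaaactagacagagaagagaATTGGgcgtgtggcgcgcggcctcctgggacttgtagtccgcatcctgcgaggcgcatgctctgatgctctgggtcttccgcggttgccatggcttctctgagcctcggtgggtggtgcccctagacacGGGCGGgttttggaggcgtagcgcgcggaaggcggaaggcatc
Lsm11: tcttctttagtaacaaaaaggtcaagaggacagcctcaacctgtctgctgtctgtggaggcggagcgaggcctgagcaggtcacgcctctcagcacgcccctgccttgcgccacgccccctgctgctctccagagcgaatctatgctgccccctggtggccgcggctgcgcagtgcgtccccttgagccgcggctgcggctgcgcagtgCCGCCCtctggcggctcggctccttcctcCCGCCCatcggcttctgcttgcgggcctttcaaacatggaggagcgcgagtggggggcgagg
Windows were found for 7 of the 9 genes, those of Rnu7 and Eri1 not among them. GGGCGG occurred in 6 of the 7 windows, against 35.7% of 32851 windows over all genes, and CCAAT in 4 of 7, against 37.4%. TATAAA occurred only in the Ncbp1 window, downstream of the start, against 13.6% of all windows, and neither the NRF1 palindrome (0.971% of all windows) nor E2F's TTTCCCGC (1.07%) was matched in any of the 7. Both strands were searched. E2F's TTTGGCGC was matched in the Casp8ap2 window alone, against 0.514% of all windows, and the ETS motif CCGGAAGT in the Ncbp1 window alone, against 3.89%. No match overlapped another in the 7 windows. GC content was 54.0% to 66.7% in the 7 windows, with a median of 52.7% over all windows.

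The factors that hold the stem-loop differed from each other. Slbp (chr5:33640055-33652574, minus strand) had 61.3, 65.5, 63.1 and 64.3 CPM in the Taf8-deleted and 61.7, 60.4, 54.0 and 59.5 CPM in the Taf8-intact libraries, so the groups overlapped. Its log2 fold change was 0.11 ± 0.04 (SE, adjusted p = 0.0429 by the quasi-likelihood test of edgeR), a call near the threshold. It was not called without Taf8-deleted replicate 2, 3 or 4 (adjusted p = 0.0928, 0.057 and 0.0689) or without Taf8-intact replicate 3 or 4 (adjusted p = 0.0863 and 0.0565). Eri1 (chr8:35465265-35495533, minus strand) encodes the exonuclease that binds the stem-loop beside SLBP and trims its end. It had 48.5, 52.4, 47.9 and 52.6 CPM in the Taf8-deleted and 63.3, 64.4, 59.0 and 57.6 CPM in the Taf8-intact libraries, without overlap, and fell by 0.28 ± 0.05 (log2 ± SE, adjusted p = 2.68e-04). The ratio of Slbp to Eri1 per base of gene length was 3.80 to 4.10 in Taf8-deleted and 2.84 to 3.21 in Taf8-intact libraries, without overlap.

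Slbp is known for protein levels that follow S phase, and genes of S phase were therefore set beside it. Of 15 S phase genes, 9 fell (60.0%, beside 32.9% of all genes tested) and the other 6 were not called. The median of the list was -0.21 on the log2 scale. Gmnn, the inhibitor of replication licensing, fell by 1.02 ± 0.08, and Uhrf1 and the helicase subunit gene Mcm7 by 0.39 ± 0.06 and 0.32 ± 0.04 (log2 ± SE). The summed level of the 15 genes was 1485 to 1600 CPM in Taf8-deleted and 1583 to 1923 CPM in Taf8-intact libraries, which overlap through Taf8-intact replicate 3. That library also had the lowest Slbp value, and without it Slbp had a log2 fold change of 0.08 ± 0.04. Among 6 genes known to act on SLBP protein, 3 rose and 2 fell. Dcaf11, a ubiquitin ligase adaptor, fell by 0.27 ± 0.03 and Cdk1, which as a cyclin A partner marks SLBP for degradation, by 0.36 ± 0.06, whereas Ccna2 had a log2 fold change of 0.01 ± 0.06 and was not called. Ddb1 and Csnk2a1 rose by 0.24 ± 0.03 and 0.16 ± 0.04 (log2 ± SE).

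In the histone locus body, the nuclear structure that forms on the histone gene clusters, the factor genes parted. Npat (chr9:53536889-53575627, plus strand), whose product is a CDK2 substrate that activates histone gene transcription, had 51.5, 50.6, 49.5 and 53.2 CPM in the Taf8-deleted and 53.8, 51.0, 50.3 and 49.1 CPM in the Taf8-intact libraries. The groups overlapped, and the log2 fold change was 0.005 with a 95% interval of -0.09 to 0.10 (adjusted p = 0.926 by the quasi-likelihood test of edgeR). Casp8ap2 (chr4:32615470-32653271, plus strand) had 76.4, 74.8, 73.8 and 81.2 CPM in the Taf8-deleted and 94.9, 91.5, 86.2 and 85.3 CPM in the Taf8-intact libraries. Its groups did not overlap, and it fell by 0.23 ± 0.04 (log2 ± SE, adjusted p = 5.56e-04). The ratio of Npat to Casp8ap2 per base of gene length was 0.607 to 0.627 in Taf8-deleted and 0.515 to 0.540 in Taf8-intact libraries.

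Npat lies head to head with Atm, the DNA damage kinase gene, with annotated starts 61 bases apart. Atm averaged 146.7 ± 9.93 CPM in Taf8-deleted and 116.8 ± 6.02 CPM in Taf8-intact cortex (SD, n = 4 each) and rose by 0.33 ± 0.05 (log2 ± SE, adjusted p = 1.47e-04 by the quasi-likelihood test of edgeR). The ratio of Npat to Atm per base of gene length was 0.547 to 0.603 in Taf8-deleted and 0.681 to 0.740 in Taf8-intact libraries, without overlap. The RefSeq window of Npat is shown because these neighbours differed unequally. It lies on the plus strand of chr9:53536797-53537096 (GRCm38.p6), and also holds the start of Atm. The window is set on a start inside the annotated Npat span, so most of it, with the last match, lies within Npat and not between the genes. Matches to CCAAT and GGGCGG on either strand are in capitals.
Npat: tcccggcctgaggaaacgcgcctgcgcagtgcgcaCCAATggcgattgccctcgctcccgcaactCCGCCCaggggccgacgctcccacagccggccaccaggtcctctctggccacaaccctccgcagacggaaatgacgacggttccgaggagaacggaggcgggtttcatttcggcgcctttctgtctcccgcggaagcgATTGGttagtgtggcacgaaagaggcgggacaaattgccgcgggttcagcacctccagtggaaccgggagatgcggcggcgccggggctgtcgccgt
Of 8 other genes of the histone locus body and of histone gene transcription, 2 rose and 3 fell. Gon4l, a homologue of the fly histone locus body factor Mute, and Yy1 rose by 0.31 ± 0.05 and 0.17 ± 0.04 (log2 ± SE). Pou2f1, known as OCT1 and an activator of H2B genes, fell by 0.54 ± 0.09, Ccne1 by 0.36 ± 0.07 and the H4 gene activator Hinfp by 0.11 ± 0.04. Coil, which encodes the Cajal body protein coilin, had a log2 fold change of 0.01 ± 0.06 and was not called.

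Both members of the cap-binding machinery are the most abundant of the set, and they differed in opposite directions by small amounts. Ncbp1 (chr4:46138511-46172403, plus strand), the large subunit of the nuclear cap-binding complex, had 222, 226, 224 and 225 CPM in the Taf8-deleted and 189.9, 193, 183 and 186 CPM in the Taf8-intact libraries. Every Taf8-deleted value was higher, and Ncbp1 rose by 0.25 ± 0.03 (log2 ± SE, adjusted p = 1.32e-05 by the quasi-likelihood test of edgeR). Ncbp1 overlaps Tstd2 head to head by 215 bases in RefSeq and Xpa over 17057 bases of its span in GENCODE, both on the opposite strand. Tstd2 averaged 45.5 ± 1.14 CPM in Taf8-deleted and 43.4 ± 0.480 CPM in Taf8-intact cortex, and Xpa 11.9 ± 0.349 CPM in Taf8-deleted and 12.7 ± 0.395 CPM in Taf8-intact cortex (SD, n = 4 each). Neither was called (adjusted p = 0.108 and 0.203).

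Srrt (chr5:137295704-137307716, minus strand), which encodes ARS2, the partner that links the cap-binding complex to histone mRNA and other short transcripts, had 252, 237, 251.5 and 254 CPM in the Taf8-deleted libraries. It had 277, 270.2, 260.4 and 259 CPM in the Taf8-intact libraries. The groups did not overlap but came within a few CPM of each other, and Srrt fell by 0.10 ± 0.04 (log2 ± SE, adjusted p = 0.0256 by the quasi-likelihood test of edgeR). Without Taf8-deleted replicate 1, 2 or 3 it was not called (adjusted p = 0.0631, 0.13 and 0.0632), nor without Taf8-intact replicate 1 or 2 (adjusted p = 0.0743 and 0.0969). With library totals in place of TMM its log2 fold change was -0.04 and with upper-quartile factors -0.04 (adjusted p = 0.333 and 0.296).

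Of 8 further genes of the cap-binding complex and of NELF, a pausing factor that associates with it, 3 rose and 1 fell. These were 37.5% and 12.5%, beside 30.6% and 32.9% of all genes tested. Ncbp2, the small cap-binding subunit, rose by 0.19 ± 0.03, and Nelfe and Nelfb by 0.32 ± 0.05 and 0.23 ± 0.04 (log2 ± SE). Ncbp3 fell by 0.14 ± 0.04. The ratio of Ncbp1 to Ncbp2 per base of gene length was 1.32 to 1.39 in Taf8-deleted and 1.26 to 1.33 in Taf8-intact libraries, and these ranges overlapped.

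Per base of gene length, Srrt and Ncbp1 stood highest in both groups, with 82.2 ± 2.61 and 72.2 ± 0.559 RPKM (CPM per kilobase of the deposited gene length) in Taf8-deleted and 88.2 ± 2.80 and 60.5 ± 1.39 RPKM in Taf8-intact cortex (SD, n = 4 each). Slbp followed with 38.98 ± 1.10 RPKM in Taf8-deleted and 36.1 ± 2.07 RPKM in Taf8-intact cortex. Lsm10 came next with 16.2 ± 0.921 RPKM in Taf8-deleted and 13.2 ± 0.877 RPKM in Taf8-intact cortex. Casp8ap2 had 11.25 ± 0.479 RPKM in Taf8-deleted and 13.15 ± 0.669 RPKM in Taf8-intact cortex, and Eri1 had 9.94 ± 0.501 RPKM in Taf8-deleted and 12.1 ± 0.651 RPKM in Taf8-intact cortex. Lsm11, at 7.96 ± 0.165 RPKM in Taf8-deleted and 9.89 ± 0.720 RPKM in Taf8-intact cortex, and Npat, at 6.97 ± 0.215 RPKM in Taf8-deleted and 6.95 ± 0.268 RPKM in Taf8-intact cortex, were lowest. No neighbours in this order overlapped in Taf8-deleted cortex, whereas in Taf8-intact cortex the ranges of Lsm10 and Casp8ap2 overlapped, as did those of Casp8ap2 and Eri1. Rnu7 was left out of the order because 62 bases are too short for a level per length.

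The genes of the wider pathway changed in both directions. Over 81 genes of the lists used here, the 9 factors not among them, 21 rose and 31 fell, or 25.9% and 38.3%, beside 30.6% and 32.9% of all genes tested, and their median was -0.04 on the log2 scale. In the histone cleavage complex, 2 of 6 genes rose and 2 fell, or 33.3% each, beside 30.6% and 32.9% of all genes tested. Cstf2, the CstF subunit that the histone complex contains, averaged 158 ± 3.85 CPM in Taf8-deleted and 133 ± 1.07 CPM in Taf8-intact cortex (SD, n = 4 each) and rose by 0.26 ± 0.03 (log2 ± SE). Its paralogue Cstf2t averaged 98.2 ± 3.19 CPM in Taf8-deleted and 133.6 ± 2.77 CPM in Taf8-intact cortex and fell by 0.44 ± 0.03. The endonuclease gene Cpsf3 rose by 0.18 ± 0.04, while Cpsf2 and Sympk were not called, at -0.06 ± 0.03 and 0.03 ± 0.05. Zfp473, encoding a zinc finger protein that binds LSM11, fell by 0.57 ± 0.18 at 1.81 ± 0.219 CPM in Taf8-deleted and 2.69 ± 0.618 CPM in Taf8-intact cortex.

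Among 18 genes of histone mRNA export, translation and decay, 5 rose and 8 fell. These were 27.8% and 44.4%, beside 30.6% and 32.9% of all genes tested. The median of the list was -0.12 on the log2 scale. The falls included parts of the LSM1-7 ring, which binds the oligouridylated end of histone mRNA during decay. Lsm4 averaged 31.2 ± 1.51 CPM in Taf8-deleted and 61.3 ± 2.04 CPM in Taf8-intact cortex, Lsm6 averaged 19.3 ± 0.688 CPM in Taf8-deleted and 36.5 ± 1.14 CPM in Taf8-intact cortex (SD, n = 4 each), and their log2 fold changes were -0.97 ± 0.04 and -0.92 ± 0.04 (SE). Lsm2 and Lsm3 fell by 0.44 ± 0.05 and 0.19 ± 0.04, and Exosc10, the nuclear exosome nuclease gene, by 0.50 ± 0.03. Lsm5, at 1.24 ± 0.0423 CPM in Taf8-deleted and 0.622 ± 0.116 CPM in Taf8-intact cortex, rose by 0.99 ± 0.18, and Lsm1 and Lsm7 were not called, at 0.05 ± 0.05 and 0.23 ± 0.15. The translation factor genes Mif4gd, encoding the SLBP partner SLIP1, and Ctif fell by 0.30 ± 0.08 and 0.24 ± 0.04. Ddx19b and Nxf1 of mRNA export rose by 0.36 ± 0.06 and 0.18 ± 0.04, and the uridylyltransferase gene Tut7 by 0.15 ± 0.04, whereas Tut4 and Upf1 were not called, at -0.02 ± 0.04 and -0.10 ± 0.04.

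Polyadenylation, the alternative route to a 3′ end, had 13 genes of which 5 rose and 4 fell. These were 38.5% and 30.8%, beside 30.6% and 32.9% of all genes tested. Cpsf4, a subunit that reads the poly(A) signal, averaged 66.3 ± 3.88 CPM in Taf8-deleted and 43.1 ± 2.39 CPM in Taf8-intact cortex (SD, n = 4 each) and rose by 0.62 ± 0.05 (log2 ± SE). Cstf3 and the termination factor gene Pcf11 rose by 0.46 ± 0.04 and 0.22 ± 0.03. Fip1l1 and Cstf1 fell by 0.23 ± 0.03 and 0.22 ± 0.04, and the poly(A) polymerase gene Papola was not called, at -0.02 ± 0.03.

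**Figure D3:**
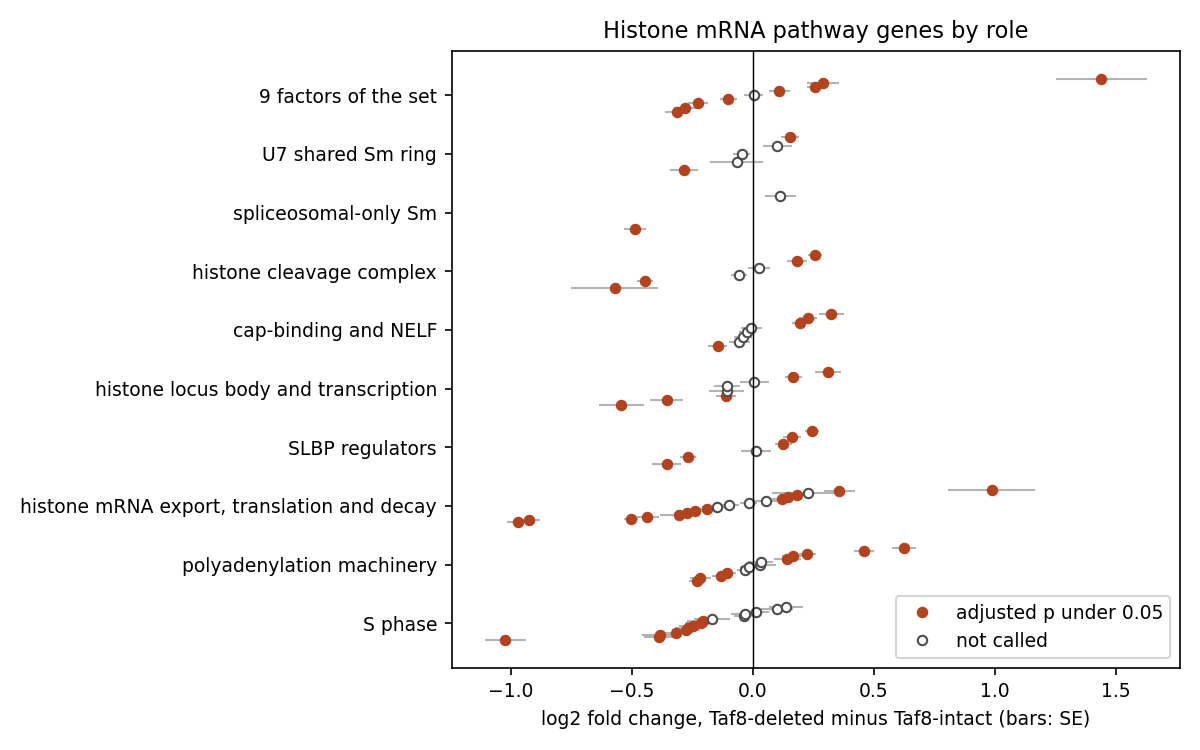
Log2 fold changes, Taf8-deleted minus Taf8-intact, with SE for the 9 genes and for the pathway lists, 1 point per gene; filled points passed adjusted p under 0.05. Rnu7 stands apart at 1.44, the other 8 genes lie between -0.31 and 0.29, and most lists hold filled points on both sides of 0.

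Counts of replication-dependent histone genes, whose transcripts these factors process, were higher in Taf8-deleted cortex in these libraries of polyadenylated RNA. Their sum over 62 genes was 242, 252, 238 and 226 CPM in Taf8-deleted and 43.8, 47.4, 44.1 and 59.7 CPM in Taf8-intact libraries, a ratio of the means of 4.91 (exact permutation test, two-sided, p = 0.0286, the smallest p that 4 against 4 allows). H1f2, a linker histone gene, alone held 29.3% of these counts, with 73.5, 77.2, 75.0 and 68.5 CPM in Taf8-deleted and 9.60, 10.9, 8.74 and 13.5 CPM in Taf8-intact libraries. The core histone genes H2ac6, H4c9 and H4c8, named with H1f2 after their values were seen, averaged 10.9 ± 0.770, 22.9 ± 1.75 and 5.13 ± 0.583 CPM in Taf8-deleted and 0.687 ± 0.131, 1.59 ± 0.182 and 0.189 ± 0.0308 CPM in Taf8-intact cortex (SD, n = 4 each). All 4 genes were higher in every Taf8-deleted library than in any Taf8-intact one. Of the 62 genes, 44 passed the filter on low counts. Among these 44, 41 rose (93.2%, beside 30.6% of all genes tested), 0 fell, and H3c6, H4c4 and H3c3 were not called. Some of the 44 passed the filter only through the Taf8-deleted libraries, where they were high. H2ac7, named after its values were seen, had 45, 39, 39 and 28 counts in Taf8-deleted and 5, 3, 1 and 1 in Taf8-intact libraries. Such genes entered the test because they were high in that group, so the share that rose is a description. The genes were also grouped by how far their GENCODE model runs past the stem-loop, a grouping chosen after the data were seen. The 23 genes whose model ends within 100 bases of it summed to 16.7 ± 1.45 CPM in Taf8-deleted and 3.62 ± 0.542 CPM in Taf8-intact cortex (SD, n = 4 each), a 4.61-fold ratio. Those with a model that runs further, 19 genes with H1f2, H2ac6 and H4c9 among them, summed to 148 ± 6.07 CPM in Taf8-deleted and 20.9 ± 2.58 CPM in Taf8-intact cortex, a 7.10-fold ratio. The 20 genes without a match summed to 74.3 ± 3.83 CPM in Taf8-deleted and 24.2 ± 4.51 CPM in Taf8-intact cortex, a 3.07-fold ratio. Most of that Taf8-intact sum was H2bc21, named after its values were seen. H2bc21 averaged 29.3 ± 1.61 CPM in Taf8-deleted and 17.25 ± 3.97 CPM in Taf8-intact cortex, a 1.70-fold difference, so it weighs on the ratio of its group. A longer model can hold more reads, near-identical histone genes can share reads, and gene counts do not place reads before or after the stem-loop, so the 3 ratios are descriptions. Gene counts do not show whether the histone reads came from RNA with a poly(A) tail, and this was not tested. The Rnu7 row was also counted in these libraries, and which transcript its reads came from was not tested. Whether the histone differences and those of the processing factors are linked was not tested.

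**Figure D4:**
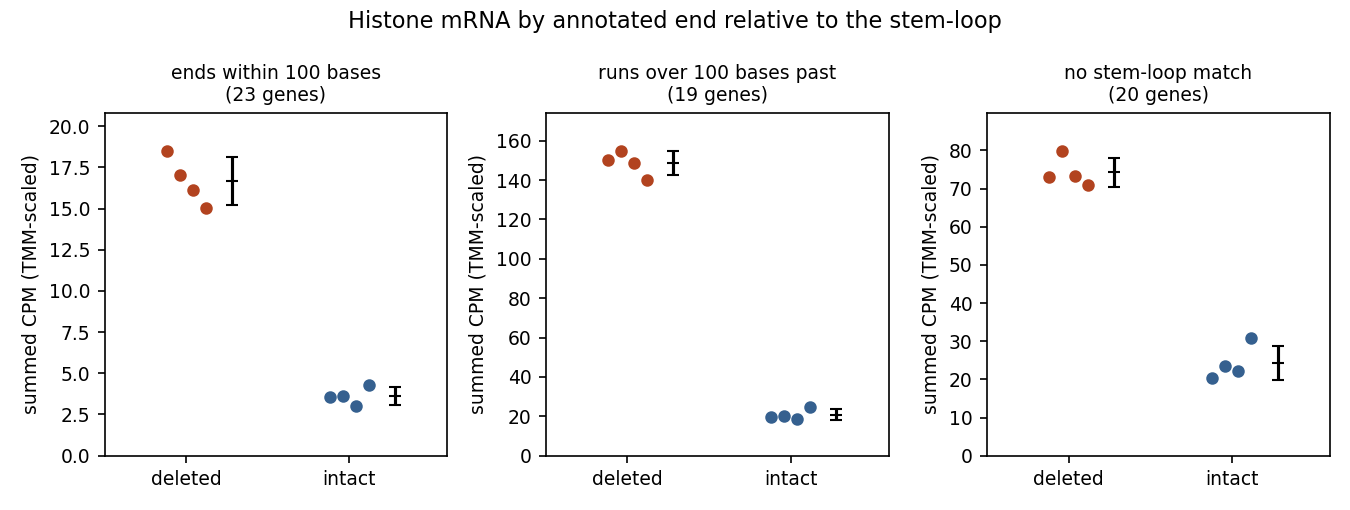
Summed TMM-scaled CPM of histone genes in Taf8-deleted (left) and Taf8-intact (right) libraries, with mean and SD, for gene models that end within 100 bases of the stem-loop, that run further, and that hold no stem-loop match. All 4 Taf8-deleted libraries exceed all Taf8-intact libraries in each of the 3 groups of genes.

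**Figure D5:**
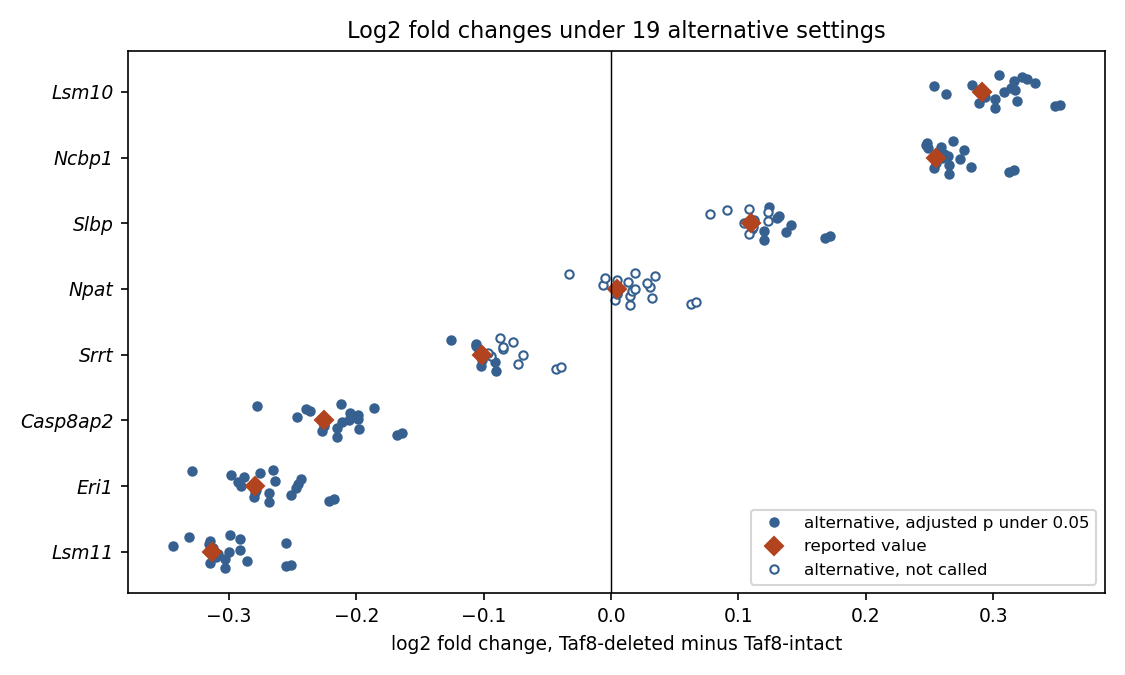
Log2 fold changes of the 8 protein-coding genes, Taf8-deleted minus Taf8-intact, as reported (diamonds) and under 19 alternative settings (circles, filled where the adjusted p was under 0.05). Lsm10, Ncbp1, Casp8ap2, Eri1 and Lsm11 are filled under all 19, Slbp and Srrt under some, and Npat under none.

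Under the 19 alternatives, which comprise other scalings, filters and tests and left-out libraries, the calls of Rnu7, Lsm10, Ncbp1, Casp8ap2, Eri1 and Lsm11 were kept with their directions. The log2 fold change of Rnu7 lay between 1.23 and 1.52.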

How the data were processed

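RNA sequencing of polyadenylated RNA from 8 embryonic cortices gave whole-number gene counts, which the authors deposited without normalization. The submitters' processing notes name bcl2fastq 1.8.4, Subread 1.5.0, featureCounts and build mm10, with no annotation or rule for multiply mapping reads given. The deposited table also holds a gene length in bases. Of its 27179 identifiers, 25275 matched a symbol in a RefSeq table of GRCm38.p6, the assembly of mm10.

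Counts were tested with edgeR 4.0.16 in R 4.3.3 after its filter on low counts and TMM scaling, with the quasi-likelihood test, without covariates, over all 8 libraries. Adjusted p-values are Benjamini-Hochberg values over 16074 genes, at a threshold of 0.05. The SE comes from the fold change and its F statistic. DESeq2 1.42.0 and limma 3.58.1 were alternatives. The test was run on simulated counts, where it called 80% to 100% of genes given a log2 difference of 0.5 or 1 in either direction. Smaller differences, such as those of most of the 9 genes, were not simulated. Libraries of a group differed by more than sampling noise (chi-square per gene 4.22 to 14.6). Libraries are unstranded, so opposite-strand reads are not separated. The 9 genes and the lists were chosen with earlier results of these data known. Genes named are Taf8, the 9 factors, genes of the lists, genes that overlap or face a factor, and the 3 named protein-coding genes with the smallest root mean square difference from Rnu7. Others are marked as chosen after their values were seen. The labels make each library a separate embryo. The embryos' numbers share no first part between the groups. Of the 4 Taf8-intact embryos 3 share a first part, while the 4 Taf8-deleted ones all differ in it. What it marks is not stated, so an effect of litter, if that part marks one, and of genotype cannot be told apart. The values of 1 gene of the lists are not reported here.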

Additional observations from a re-analysis of the deposited data

Results flagged for a closer look

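Within 20 groups of 4 libraries, 10 measures in each of 2 groups, 2 had a library far from the others, by a gap to the nearest library that, as a share of the group's range, exceeds Dixon's 95% critical value. Chance gives about 1 such group in 20. Lsm10 in Taf8-deleted replicate 1 stood at 15.99 CPM, with the gap at 0.862 of the range. Srrt in Taf8-deleted replicate 2 stood at 237 CPM, with the gap at 0.858 of the range.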

How the results depend on the processing

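Of the 19 alternatives for the genes, 1, without identifiers that have no symbol, was chosen after seeing the data. The number of the 9 genes that rose was 3 or 4 under all 19, and so was the number that fell. Among the pathway genes, 17 to 24 rose and 25 to 32 fell. Slbp kept its direction and lost its call under 9 alternatives, with a log2 fold change of 0.08 to 0.12 there, and Srrt under 11, with -0.10 to -0.04 there. Npat, not called, changed sign without Taf8-deleted replicate 4 (-0.0064), without Taf8-intact replicate 4 (-0.0045) and without both (-0.033); with 1 library left out it lay between -0.0064 and 0.0306. The log2 ratio of summed histone CPM was 2.25 to 2.42 with 1 library left out (p = 0.0571, the smallest possible), 2.26 without Taf8-deleted replicates 2 and 3 (exact p = 0.133) and 2.43 without replicate 4 of both groups (exact p = 0.1). Same-numbered libraries share only a number: their deviations correlated at -0.455 to 0.005, and no library correlated best with its own number. With the replicate block, 3 genes rose and 3 fell, and the log2 fold changes of Slbp and Srrt were 0.11 and -0.10 (adjusted p = 0.0551 and 0.0563). Depth limits Rnu7 most, with 20 to 86 counts per library.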

Other observations

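Some genes next to the 9 factors, chosen after their values were seen, also differed. Thg1l, which encodes the tRNA-histidine guanylyltransferase and ends 309 bases upstream of the annotated Lsm11 span on the same strand, averaged 2.98 ± 0.183 CPM in Taf8-deleted and 11.3 ± 1.04 CPM in Taf8-intact cortex (SD, n = 4 each). It fell by 1.92 ± 0.09 (log2 ± SE, adjusted p = 7.68e-09 by the quasi-likelihood test of edgeR) and ranked 266 by absolute log2 fold change among all genes tested. Ufsp1, which lies 40 bases beyond the end of Srrt on the opposite strand, averaged 6.14 ± 0.524 CPM in Taf8-deleted and 2.81 ± 0.634 CPM in Taf8-intact cortex and rose by 1.13 ± 0.14 (adjusted p = 2.63e-05). Tmem129, 642 bases upstream of Slbp on the same strand, rose by 0.19 ± 0.05 (adjusted p = 0.00312).

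The genes closest to Rnu7 in centred log2 CPM were chosen for that likeness over the same 8 libraries, so their direction follows from the choice and their levels are a description. Trappc6a, a subunit of a vesicle tethering complex, averaged 16.4 ± 1.24 CPM in Taf8-deleted and 6.83 ± 0.203 CPM in Taf8-intact cortex (SD, n = 4 each). Gnat2, the cone transducin gene, averaged 0.806 ± 0.160 CPM in Taf8-deleted and 0.285 ± 0.0729 CPM in Taf8-intact cortex, and Adssl1, an adenylosuccinate synthase gene, 2.84 ± 0.209 CPM in Taf8-deleted and 1.19 ± 0.192 CPM in Taf8-intact cortex.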
